A study of Mus musculus with 9 samples.

Results

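The 10 genes described here are Hspa5, Hsp90b1, Xbp1, Dnajb9, Herpud1, Edem1, Sdf2l1, Hyou1, Creld2 and Pdia4, known targets of the transcription factors ATF6 and XBP1 in the unfolded protein response of the endoplasmic reticulum (ER). They were chosen by symbol, 10 of the 16509 genes in the expression table, and all 10 were among the 11949 genes that passed the filter on low counts. RNA of MC38 cells, a mouse colorectal carcinoma line, was sequenced in 9 libraries, 3 for each of 3 groups. CTL cells received the vehicle, named DMSO in the sample labels and PBS in the methods. Cu-Cys cells received particles made of copper and cystine. Cadict cells received the same copper and cystine particles carrying glucose oxidase (GOx), which consumes glucose, and the targeting peptide GE11. No dose or duration was stated for these libraries. The methods call the replicates of the study biological, whereas the sample labels do not say whether these libraries came from separate cultures, and the p-values measure the spread between them.

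The ER folds secreted and membrane proteins. When unfolded proteins accumulate there, the sensors IRE1 (gene Ern1), PERK (Eif2ak3) and ATF6 start separate branches of signalling. IRE1 splices the Xbp1 mRNA and thereby yields the active XBP1 factor, and ATF6 is cut by the Golgi protease MBTPS1 (site-1 protease) and enters the nucleus as a transcription factor. Both raise chaperones and degradation factors of the ER, whereas PERK phosphorylates the initiation factor eIF2α, slows translation and favours synthesis of ATF4. Kinases outside the ER act on eIF2α as well, so ATF4 targets are shared with other stresses, glucose and amino acid shortage among them.

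Promoters of ER chaperone genes are known to carry the ER stress response element (ERSE), through which ATF6 and XBP1 act, and the elements are shown because they were found in some of the 10 genes and not in others. RefSeq promoters (mouse GRCm38.p6, 250 bases before to 50 bases after the transcription start) were found for 9 of the 10, and Hyou1 had no entry. They were searched on both strands for ERSE (CCAAT and CCACG separated by 9 bases), for ERSE-II (ATTGG and CCACG separated by 1 base) and for TGACGTGG, an element bound by XBP1 and ATF6. CCACG is shared by ERSE and ERSE-II. Stretches around each match are given on the strand of the gene, 5′ to 3′, with the fixed bases of the element in capitals; where the element lies on the opposite strand its reverse complement is read. In order, they are chr2:34772015-34772053 (+), chr10:86705628-86705666 (−), chr10:86705523-86705561 (−), chr15:88819510-88819548 (+) and chr8:94386367-94386397 (+).
Hspa5 ERSE: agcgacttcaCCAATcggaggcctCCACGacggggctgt
Hsp90b1 upstream ERSE: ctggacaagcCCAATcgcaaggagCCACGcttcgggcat
Hsp90b1 downstream ERSE, opposite strand: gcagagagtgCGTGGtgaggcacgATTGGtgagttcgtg
Creld2 ERSE, opposite strand: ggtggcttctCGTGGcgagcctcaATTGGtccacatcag
Herpud1 ERSE-II: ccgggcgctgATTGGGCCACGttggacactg

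The ERSE of Hspa5 began 65 bases upstream of the RefSeq start, those of Hsp90b1 212 and 107 bases upstream and that of Creld2 126 bases upstream. The ERSE-II of Herpud1 began 52 bases upstream. ERSE was present in 3 of the 9 promoters, in 0.119% of 32851 mouse promoters of the same length and in 0.168% of the 9547 tested genes with a promoter. ERSE-II was present in 1 of the 9, in 0.0365% of all promoters and in 0.0943% of the tested genes with a promoter. TGACGTGG was found in 0 of the 9, in 0.676% of all promoters and in 0.974% of the tested genes with a promoter. The 10 genes are known targets of ATF6 and XBP1, so their shares are a description and not a test of enrichment. No match was found in these windows for Xbp1, Dnajb9, Edem1, Sdf2l1 or Pdia4, which says only that these letters are not in these 300 bases. The window of Dnajb9 (chr12:44210019-44210318, −) lies wholly inside its gene in GENCODE M21, whose 5′ end is at 44210326. Bases upstream of that end were therefore not searched for Dnajb9. A further search for ERSE with exactly 1 of its 10 fixed bases changed was chosen after the exact search. It found such an element in Pdia4, Herpud1 and Hsp90b1, against 1.4% of all promoters and 2.24% of the tested genes with a promoter. The element of Pdia4, which lies on the opposite strand at chr6:47813592-47813630 (−), is shown because Pdia4 was among the genes with the largest falls described below, with the 10 positions in capitals. The RefSeq start used for Pdia4 lies upstream of the gene's 5′ end in GENCODE M21 (47813430), so that its whole window falls outside the GENCODE transcripts, unlike those of the other 8 genes. The GENCODE 5′ ends of Hspa5 (34771970) and Hsp90b1 (86705509) also differ from the RefSeq starts, and that of Hspa5 lies upstream of its ERSE. Distances therefore depend on the start chosen.
Pdia4 ERSE with 1 changed base, opposite strand: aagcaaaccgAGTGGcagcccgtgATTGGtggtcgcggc

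**Figure D1:**
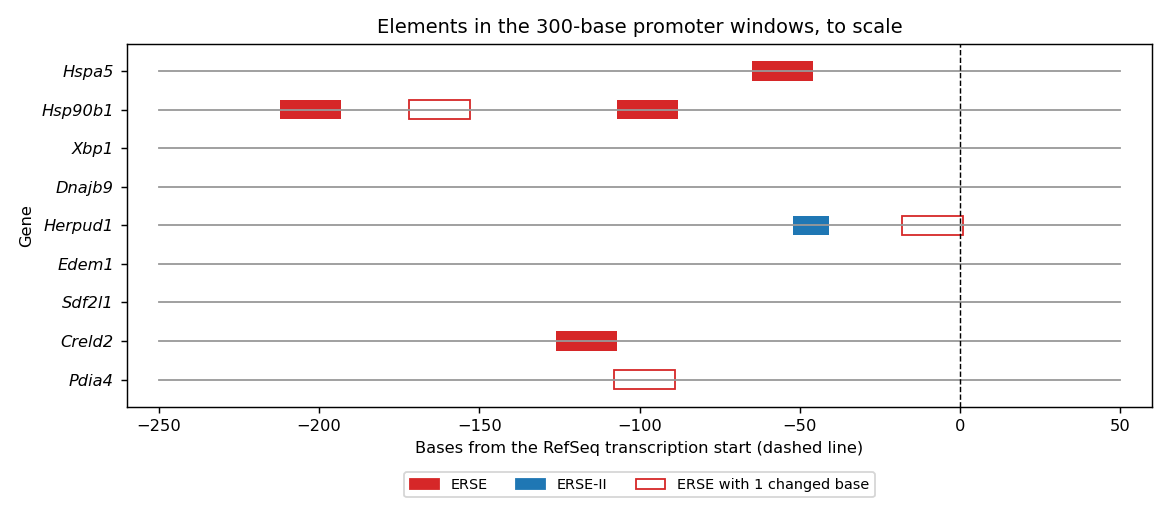
Positions of the elements in the RefSeq promoter windows of 9 genes, in bases from the transcription start (dashed line), with the lines spanning the 300 bases searched. Filled red boxes are exact ERSE, the blue box is ERSE-II and open red boxes are ERSE with 1 changed base. Hspa5, Hsp90b1 and Creld2 hold the exact element.

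Library totals were 17905769 to 18293060 estimated counts, and 3 counts, the limit for a gene listed at 0, corresponded to 0.164 to 0.168 CPM (counts scaled to a common total). EdgeR's trimmed-mean scaling (TMM), which sets the typical gene equal between libraries, gave factors of 1.26 to 1.27 in CTL, 1.21 in Cu-Cys and 0.640 to 0.665 in Cadict libraries. TMM-scaled CPM is used below for one gene across libraries, and TPM, which is per length and per library, for levels between genes. With library totals in place of TMM the typical log2 fold change (median over the tested genes) moved by -0.95 in Cadict against CTL and by -0.07 in Cu-Cys against CTL, so directions in Cadict cells are relative to the typical gene. DESeq2 size factors shifted it by 0.12 and 0.03. Of 8 epithelial markers, 6 were in the table and summed to 4.22 to 6.24 TPM in CTL, 3.50 to 3.95 in Cu-Cys and 11.5 to 13.2 in Cadict libraries, while Epcam was listed at 0 in every CTL and Cu-Cys library and Krt8, Krt18 and Vil1 stayed under 1 TPM in every library. Krt19 reached 8.36 to 9.31 TPM in Cadict libraries. The 3 leukocyte markers in the table summed to at most 0.50 TPM, and the 3 endothelial markers to at most 1.20 TPM. The 4 fibroblast markers, mostly Col1a2, summed to 261 to 283 TPM in CTL, 132 to 138 in Cu-Cys and 21.3 to 26.7 in Cadict libraries. Their part in the results was not tested. Cadict replicate 2 stood apart from its group, with a chi-square per degree of freedom of 13.8 and 21.8 against replicates 1 and 3, which differed by 3.50, whereas CTL pairs differed by 1.86 to 2.02 and Cu-Cys pairs by 2.61 to 4.40. Without it the log2 fold changes in Cadict against CTL were 3.14 for Dnajb9, -2.29 for Sdf2l1, -1.81 for Pdia4 and 0.79 for Hspa5, the median of the 10 was -0.58, and the counts of called genes among the 10 were the same. In bulk RNA, fewer cells that express a gene and less RNA per cell cannot be told apart.

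Among the 10 genes, the chaperones Hsp90b1 and Hspa5 were the most abundant in CTL cells. Hsp90b1, which encodes the ER HSP90 chaperone GRP94, had 1322 ± 38.8 TPM (SD, n = 3), and Hspa5, which encodes the central HSP70 chaperone BiP, had 1049 ± 33.3 TPM (SD, n = 3). Pdia4, a multi-domain protein disulfide isomerase, followed at 196 ± 2.74 TPM, and Herpud1, a scaffold of the degradation complex in the ER membrane, at 152 ± 4.99 TPM (SD, n = 3 for each). Creld2, an ER disulfide isomerase-like protein, at 102 to 110 TPM and Hyou1, a nucleotide exchange factor of BiP, at 97.6 to 103 TPM overlapped in their libraries. So did Sdf2l1, a luminal partner of BiP and its J-domain proteins, at 71.0 to 74.0 TPM and Xbp1 at 67.8 to 74.5 TPM. Edem1, a mannosidase-like protein that passes misfolded glycoproteins to degradation, stood at 49.3 to 51.0 TPM. Dnajb9, the J-domain co-chaperone ERdj4, was lowest at 14.4 to 16.7 TPM.

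The order was different in Cadict cells. Hspa5, at 701 to 788 TPM, lay above Hsp90b1, at 596 to 696 TPM, the reverse of the CTL order, with no overlap in either group. Dnajb9 moved from the tenth place to the third, at 45.3 to 60.4 TPM. Sdf2l1 moved to the last, at 5.34 to 6.49 TPM. Between them stood Herpud1 at 35.1 to 41.6 TPM, Hyou1 at 26.7 to 34.1, Creld2 at 28.9 to 30.7, Pdia4 at 21.1 to 25.2, Xbp1 at 16.4 to 18.5 and Edem1 at 12.3 to 14.8, and of these neighbours only Hyou1 and Creld2 overlapped. Hspa5 and Hsp90b1 together held 75.6% ± 0.277 of the summed TPM of the 10 genes in CTL cells, 75.4% ± 0.506 in Cu-Cys cells and 86.7% ± 0.356 in Cadict cells (SD, n = 3). The 10 genes together took 0.424 to 0.432% of all counts in CTL, 0.381 to 0.397% in Cu-Cys and 0.281 to 0.283% in Cadict libraries.

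Cadict against CTL asks what the complete nanodrug did to the ER folding genes. The 10 genes did not move as a unit. Dnajb9 rose 8.50-fold, Sdf2l1 and Pdia4 fell 4.87-fold and 3.46-fold, and the other 7 changed by less than 2-fold, with Hspa5 and Hsp90b1 higher and Xbp1, Herpud1, Edem1, Hyou1 and Creld2 lower on the TMM scale. In the edgeR quasi-likelihood test, Benjamini-Hochberg adjusted over all tested genes, 3 of the 10 passed an adjusted p of 0.05 as higher and 7 as lower, in a comparison where 40.6% of all tested genes passed as higher and 47.1% as lower. At the call rule of 2-fold or more at an adjusted p of 0.001 or less, 1 gene was called higher and 2 were called lower, where 20.7% of all tested genes were called higher and 27.1% lower. With so many of all genes past both thresholds, these counts say little about the 10 genes in particular. The 10 genes had a median of -0.55 on the log2 scale, and all tested genes one of -0.13. Ranked by fold change among all 11949 tested genes, Xbp1 was 4256th and Hyou1 5171st from the lowest. Herpud1, Edem1 and Creld2 lay between them. Hspa5 was 2966th and Hsp90b1 4578th from the highest. The changes of these 7 genes were thus of a size common among all tested genes. Under library totals the same test called 1 of the 10 higher and 7 lower, where 6.93% of all tested genes were called higher and 51.5% lower.

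**Figure D2:**
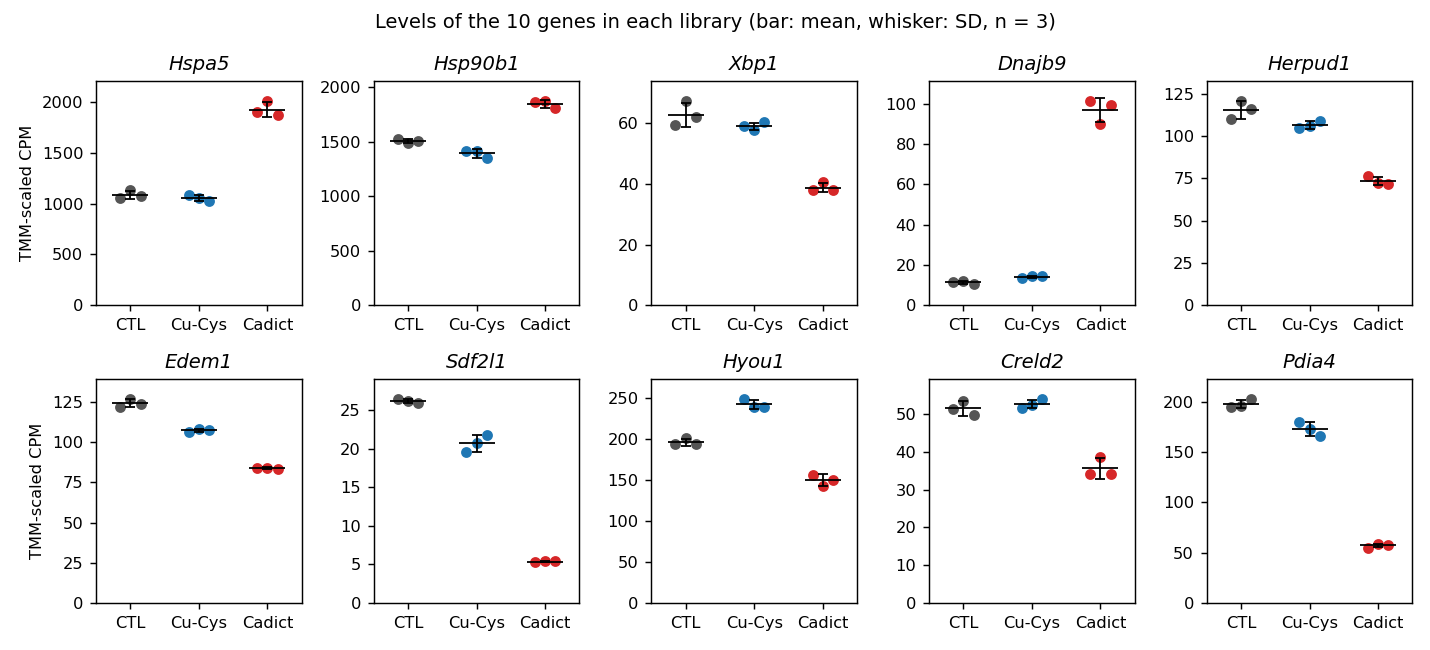
TMM-scaled CPM of the 10 genes (each panel with its own axis from 0) in each library of CTL, Cu-Cys and Cadict cells, with points for libraries, bars for means and whiskers for the SD (n = 3). The 3 Cadict libraries lie apart from the 3 CTL libraries in every panel, above them for Hspa5, Hsp90b1 and Dnajb9 and below them for the other 7, and scaling by library totals puts Hspa5 and Hsp90b1 below as well.

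Dnajb9 encodes a co-chaperone that is known to bring BiP to misfolded proteins and to the luminal domain of IRE1. Its TMM-scaled level was 11.6, 12.1 and 10.5 CPM in the CTL libraries, 13.4, 14.6 and 14.3 in the Cu-Cys libraries and 101, 90.0 and 99.3 in the Cadict libraries. The Cadict libraries were all far above the others, and the Cu-Cys libraries all lay slightly above CTL. The log2 fold change in Cadict against CTL was 3.09 (SE 0.07, adjusted p = 4.2e-15, the edgeR quasi-likelihood test after Benjamini-Hochberg adjustment), the 278th highest of 11949. Under library totals it was 2.13, and over all alternatives to the processing it stayed between 1.72 and 3.21. Of its 50-base stretches, 5.5% also occur in the transcripts of 1 other annotated gene. Its gene lies at chr12:44205559-44210326 (−, GRCm38).

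Sdf2l1 gave the opposite picture. It is a small luminal protein that works with BiP and J-domain co-chaperones and limits aggregation of misfolded proteins. Its level was 26.5, 26.2 and 26.0 CPM in the CTL libraries, 19.6, 20.8 and 21.8 in the Cu-Cys libraries and 5.27, 5.40 and 5.46 in the Cadict libraries. The 3 groups did not overlap, and the Cadict level rested on 62 to 65 counts per library against 597 to 612 in CTL. It fell by 2.29 on the log2 scale (SE 0.09, adjusted p = 1.1e-12, edgeR with Benjamini-Hochberg adjustment), the 1055th lowest of 11949.

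Pdia4 (ERp72) forms and rearranges disulfide bonds in client proteins. Its level was 195, 196 and 203 CPM in the CTL libraries, 180.2, 173 and 166 in the Cu-Cys libraries and 55.0, 58.6 and 57.9 in the Cadict libraries. Again the 3 groups did not overlap, with Cadict far below the rest. It fell by 1.79 on the log2 scale (SE 0.05, adjusted p = 5.5e-14, edgeR with Benjamini-Hochberg adjustment), the 1686th lowest of 11949. Both Sdf2l1 and Pdia4 were lower in Cadict than in CTL cells under every alternative tried.

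Hspa5 encodes BiP, which binds the 3 sensors in unstressed cells and is the usual reporter of the response. Its level was 1059, 1134 and 1072 CPM in the CTL libraries, 1092, 1053 and 1030.3 in the Cu-Cys libraries and 1901, 2009 and 1872 in the Cadict libraries. On this scale the Cadict libraries lay above all others, a 1.77-fold rise (log2 fold change 0.82, SE 0.05, adjusted p = 2.3e-10, edgeR with Benjamini-Hochberg adjustment), which under library totals became a log2 fold change of -0.13 (adjusted p = 0.015). The count behind it was 24490 to 26186 in CTL libraries and 22295 to 23055 in Cadict libraries, so the direction is set by the scaling.

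Hsp90b1, whose product GRP94 folds a restricted set of clients after BiP, had 1525, 1484 and 1505 CPM in the CTL libraries, 1418, 1413 and 1346 in the Cu-Cys libraries and 1863, 1869.9 and 1808 in the Cadict libraries. The groups did not overlap. Its log2 fold change of 0.30 (SE 0.05, adjusted p = 1.5e-05, edgeR with Benjamini-Hochberg adjustment) turned to -0.66 under library totals. Its exons overlap those of 1810014B01Rik on the opposite strand and those of Gm15344 and Gm25745 on its own, and since the strand setting of the counting is not given in the sources used here, reads of such overlaps cannot be told apart.

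Xbp1 encodes the transcription factor itself. It had 59.5, 67.2 and 62.0 CPM in the CTL libraries, 59.0, 57.8 and 60.3 in the Cu-Cys libraries and 38.1, 40.5 and 37.9 in the Cadict libraries. It fell 1.62-fold in Cadict against CTL (log2 fold change -0.70, SE 0.06, adjusted p = 3.1e-08, edgeR with Benjamini-Hochberg adjustment), while the CTL and Cu-Cys libraries overlapped. The table counts reads per gene, so splicing of the Xbp1 mRNA was not measured.

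The degradation factors fell by less. Herpud1, with 110.0, 120.5 and 116 CPM in the CTL libraries, had 76.4, 72.2 and 71.9 CPM in the Cadict libraries. The log2 fold change was -0.65 (SE 0.05, adjusted p = 9.6e-09, edgeR with Benjamini-Hochberg adjustment). Edem1 had 122, 127 and 124 CPM in the CTL libraries and 84.1, 84.3 and 83.5 in the Cadict libraries, a log2 fold change of -0.57 (SE 0.05, adjusted p = 9.6e-09, same test). In both genes every Cadict library lay below every CTL and Cu-Cys library.

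Hyou1 and Creld2 completed the lower group. Hyou1, known as GRP170, had 193, 201 and 193 CPM in the CTL libraries, 249, 239 and 239 in the Cu-Cys libraries and 156, 142 and 150.4 in the Cadict libraries. Among the 7 genes lower with TMM it had the smallest change in Cadict against CTL (log2 fold change -0.39, SE 0.05, adjusted p = 2.3e-06, edgeR with Benjamini-Hochberg adjustment). Creld2 had 51.4, 53.6 and 49.8 CPM in the CTL libraries, 51.8, 52.5 and 54.0 in the Cu-Cys libraries and 34.1, 38.8 and 34.2 in the Cadict libraries, and it fell by 0.53 on the log2 scale (SE 0.06, adjusted p = 1.1e-06, same test). Although Creld2 holds the exact ERSE, as Hspa5 and Hsp90b1 do, it lay below CTL on the TMM scale, on which they lay above it, and with library totals all 3 lay below CTL (-1.49 for Creld2).

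**Figure D3:**
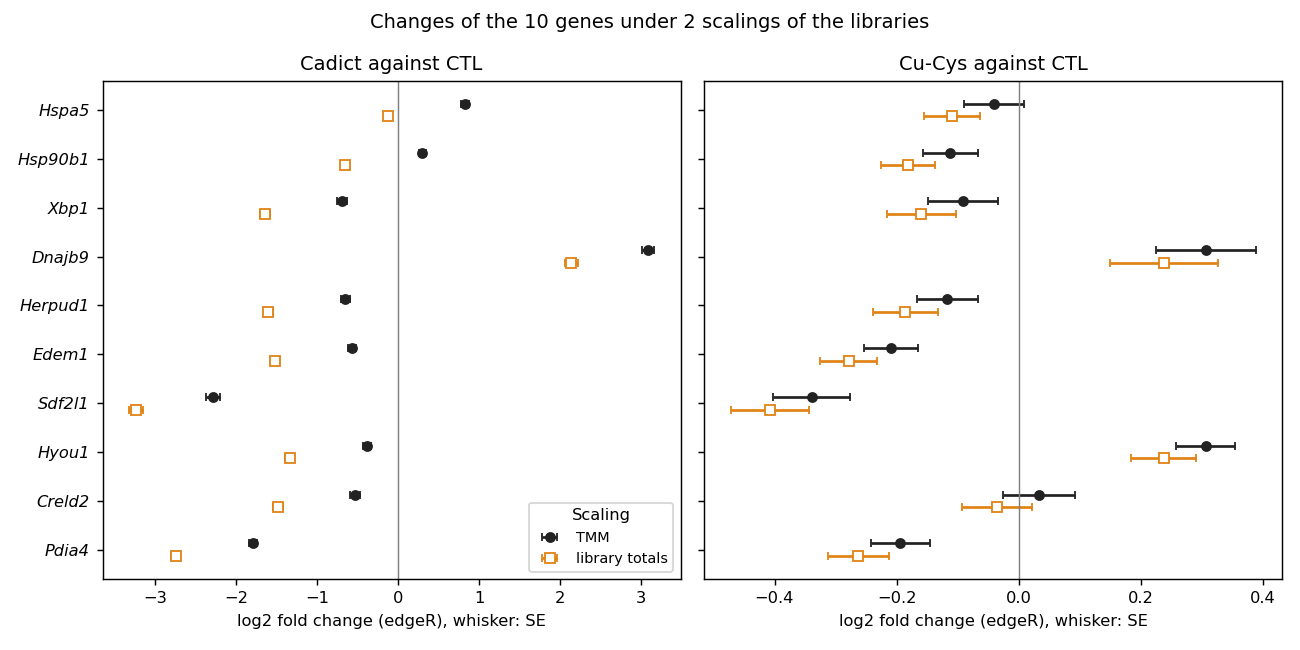
Log2 fold changes of the 10 genes (rows) in Cadict against CTL and in Cu-Cys against CTL, with TMM scaling (filled) and with library totals (open), whiskers showing the SE. In Cadict against CTL the change of scaling moves Hspa5 from 0.82 to -0.13 and Hsp90b1 from 0.30 to -0.66, while Dnajb9 stays higher and the other 7 stay lower.

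Ratios between genes within a library are free of the scaling between libraries. The log2 ratio of TPM to that of Hspa5 was therefore taken in each library. For Dnajb9 it was -6.05 ± 0.08 in CTL and -3.79 ± 0.14 in Cadict cells (SD, n = 3). For Sdf2l1 it was -3.86 ± 0.06 in CTL and -6.98 ± 0.06 in Cadict cells, and for Pdia4 it was -2.42 ± 0.07 and -5.03 ± 0.05 (SD, n = 3 for each). Relative to Hspa5, 8 of the other 9 genes were thus lower in Cadict than in CTL cells, by 0.52 (Hsp90b1) to 3.12 (Sdf2l1) on the log2 scale, and Dnajb9 alone was higher, by 2.26. Xbp1, Herpud1, Edem1, Hyou1 and Creld2 shared a narrow band of differences, from -1.52 for Xbp1 to -1.20 for Hyou1. These ratios have no test.

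**Figure D4:**
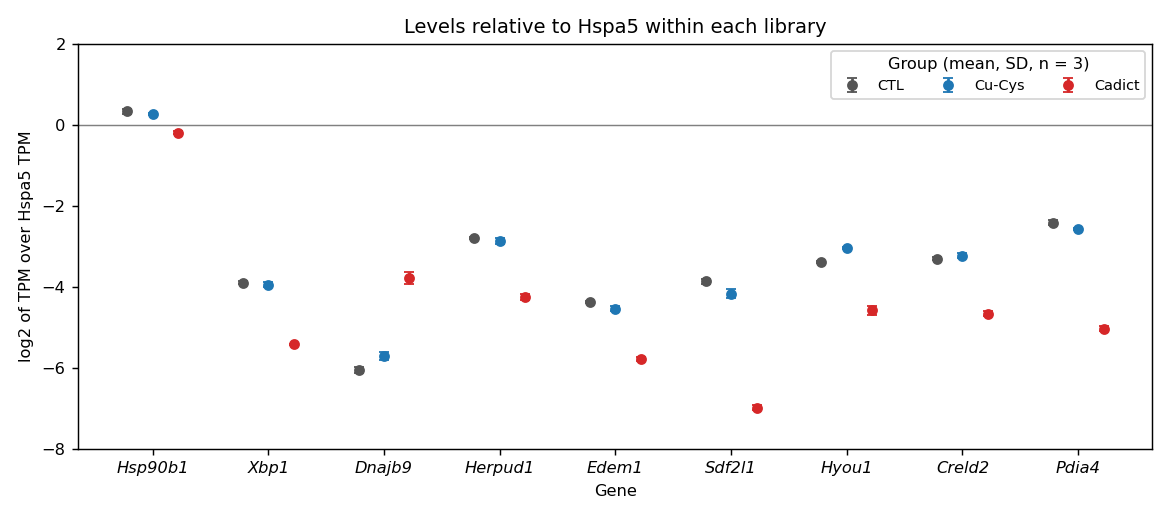
Log2 of the TPM of each gene over the TPM of Hspa5 in the same library, for CTL, Cu-Cys and Cadict cells (points are means, whiskers the SD, n = 3), so that 0 is the level of Hspa5. From CTL to Cadict, Dnajb9 moves up from -6.05 to -3.79 and every other gene moves down.

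Cu-Cys against CTL asks what copper and cystine particles did without glucose oxidase and the peptide. Changes were small. Dnajb9 and Hyou1 rose 1.24-fold each, and Sdf2l1, Edem1 and Pdia4 fell 1.26-fold, 1.16-fold and 1.14-fold. By the edgeR quasi-likelihood test after Benjamini-Hochberg adjustment, 2 of the 10 genes passed as higher and 3 as lower, where 22.6% and 22.4% of all tested genes did. None of the 10 met the call rule in edgeR, where 0.167% of all tested genes were called higher and 1.47% lower. At an unadjusted p under 0.05, 2 were higher and 5 lower. DESeq2's Wald test called 0 of the 10 as well, where 24 of 12956 tested genes were called higher and 142 lower.

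Hyou1 was the one gene that stood higher than CTL in Cu-Cys cells and lower in Cadict cells with both changes past the test. Its 239 to 249 CPM in Cu-Cys libraries did not overlap the 193 to 201 CPM of CTL (log2 fold change 0.31, SE 0.05, adjusted p = 0.00016, edgeR with Benjamini-Hochberg adjustment). Dnajb9 also had a log2 fold change of 0.31 (SE 0.08, adjusted p = 0.0070, same test). In limma on log2(TPM + 1), neither passed, with adjusted p of 0.16 for Hyou1 and 0.27 for Dnajb9. Sdf2l1 fell by 0.34 (SE 0.06, adjusted p = 0.00055), Edem1 by 0.21 (SE 0.04, adjusted p = 0.0014) and Pdia4 by 0.19 (SE 0.05, adjusted p = 0.0046), all on the log2 scale by edgeR with Benjamini-Hochberg adjustment. Hspa5 (-0.04, SE 0.05), Hsp90b1 (-0.11, SE 0.04), Xbp1 (-0.09, SE 0.06), Herpud1 (-0.12, SE 0.05) and Creld2 (0.03, SE 0.06) did not pass, with adjusted p of 0.54, 0.055, 0.21, 0.071 and 0.67 by the same test. The 10 genes had a median of -0.10 on the log2 scale, and all tested genes one of 0.01.

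Cadict against Cu-Cys asks what glucose oxidase and GE11 added, and it shares its libraries with the comparisons above. The paper reports that a control carrier lacking GE11 accumulated only marginally in MC38 cells. Uptake of copper and cystine was not stated for these libraries. A difference in uptake and an effect of glucose oxidase therefore cannot be told apart here. Dnajb9 was 6.87-fold higher, Sdf2l1 3.85-fold lower and Pdia4 3.03-fold lower. Again 3 genes passed as higher and 7 as lower by the edgeR quasi-likelihood test after Benjamini-Hochberg adjustment, where 40.3% and 45.6% of all tested genes did, and 1 was called higher and 2 lower, where 18.6% and 23.6% were. The log2 fold change was 2.78 for Dnajb9 (SE 0.07), -1.95 for Sdf2l1 (SE 0.09) and -1.60 for Pdia4 (SE 0.05). Hyou1 was 1.62-fold lower than in Cu-Cys cells and Xbp1 1.52-fold lower. Hspa5 was 0.86 higher on the log2 scale with TMM and -0.02 with library totals (adjusted p = 0.68), and Hsp90b1 was 0.41 higher with TMM and -0.48 with library totals. The median of the 10 genes was -0.55, against -0.10 for all tested genes.

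The counts of the other ER lists are read against the same background, in which 40.6% of all tested genes passed as higher and 47.1% as lower in Cadict against CTL with TMM, and 18.1% and 73.1% with library totals. Of 12 tested genes on a list of sensors and regulators of the response, 5 passed as higher and 6 as lower, and 3 were called in each direction (20.7% and 27.1% of all tested genes), shares close to those of all tested genes. Atf6 had 68.7 to 70.5 CPM in CTL and 302 to 343 CPM in Cadict libraries (log2 fold change 2.24, SE 0.06, adjusted p = 1e-14, edgeR with Benjamini-Hochberg adjustment). The gene for the protease that activates ATF6, Mbtps1, fell by 1.58 (SE 0.06, adjusted p = 3.5e-13, same test), from 187 to 191 CPM to 60.4 to 68.8 CPM. Eif2ak3, which encodes PERK, fell by 1.65 (SE 0.08, adjusted p = 1.2e-11, same test), from 28.4 to 30.0 CPM to 8.92 to 9.99 CPM. Ern1, which encodes IRE1, had a log2 fold change of 1.41 (SE 0.07, adjusted p = 3.2e-11, same test). Under library totals 2 of the 12 passed as higher and 9 as lower, and Atf6 (1.29) and Ern1 (0.46) were still higher.

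The PERK and ATF4 branch acts through control of translation and the transcription factors that follow from it. On the TMM scale all 14 tested genes passed as higher in Cadict against CTL, with a median log2 fold change of 1.63. Of the 14, 8 were called higher, where 20.7% of all tested genes were. Under library totals, however, 8 passed as higher and 4 as lower. Atf3, a stress-induced transcription factor, had 12.3 to 16.1 CPM in CTL, 10.2 to 11.2 in Cu-Cys and 1554 to 1734 CPM in Cadict libraries (log2 fold change 6.80, SE 0.09, adjusted p = 3.2e-17, edgeR with Benjamini-Hochberg adjustment). Ppp1r15a, which encodes GADD34, the subunit that reverses eIF2α phosphorylation, had 24.7 to 25.4 CPM in CTL, 38.1 to 44.3 in Cu-Cys and 1294 to 1381 CPM in Cadict libraries (log2 fold change 5.74, SE 0.07, adjusted p = 9.4e-18, same test). Sesn2, a stress-responsive inhibitor of mTORC1 signalling, had a log2 fold change of 3.39 (SE 0.10), and Ddit3, which encodes the factor CHOP, one of 2.59 (SE 0.10). The rise was uneven over the list. Trib3 (0.37, SE 0.06) and Chac1 (0.42, SE 0.06), named after their values were seen, had the smallest changes of the 14 with TMM. Atf4 mRNA had a log2 fold change of 0.68 (SE 0.06, adjusted p = 1.2e-08, same test) with TMM and -0.28 with library totals.

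Other folding and quality-control genes were divided. Of 30 tested ER chaperones and folding factors outside the 10 genes, 19 passed as higher and 6 as lower in Cadict against CTL, with a median log2 fold change of 0.60, and under library totals 6 passed as higher and 20 as lower. Serpinh1, the collagen chaperone HSP47, rose by 1.56 and Prkcsh, a subunit of glucosidase II, by 1.69, while Mogs, the glucosidase that trims the first glucose of N-glycans, fell by 2.55 on the log2 scale. Of 21 disulfide enzymes, 13 passed as higher and 7 as lower (2 and 15 under library totals). Prdx4, an ER peroxiredoxin, rose by 1.55, and Txndc11 and Qsox2, a thioredoxin-domain protein and a sulfhydryl oxidase, fell by 2.56 and 1.91.

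Of 31 genes of ER-associated degradation, 18 passed as higher and 9 as lower (10 and 20 under library totals). The ubiquitin-conjugating enzyme gene Ube2g2 had a log2 fold change of 3.12 and Ubxn4, which recruits the p97 ATPase to the ER membrane, one of 2.28, whereas the ubiquitin ligase gene Rnf139 fell by 2.50. Of 27 genes of the translocon and the early secretory pathway, 18 passed as higher and 7 as lower (8 and 15 under library totals). Ssr4, a translocon-associated subunit, rose by 2.06, Sec11a, a signal peptidase subunit, by 2.02 and Srprb, a signal recognition particle receptor subunit, by 1.92, although 19.9% of the 50-base stretches of Srprb also occur in other genes. Each named gene of these 4 lists had the same direction under library totals. Ern2 and Gpx7 were not in the table. In Cu-Cys against CTL, where 22.6% of all tested genes passed as higher and 22.4% as lower, the PERK and ATF4 branch had 4 genes higher and 6 lower and the degradation genes 11 and 3. With library totals, where 15.4% and 28.9% of all tested genes passed, these counts were 2 and 7 for the branch and 7 and 8 for the degradation genes, and in limma on log2(TPM + 1) they were 1 and 6, and 0 and 6.

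**Figure D5:**
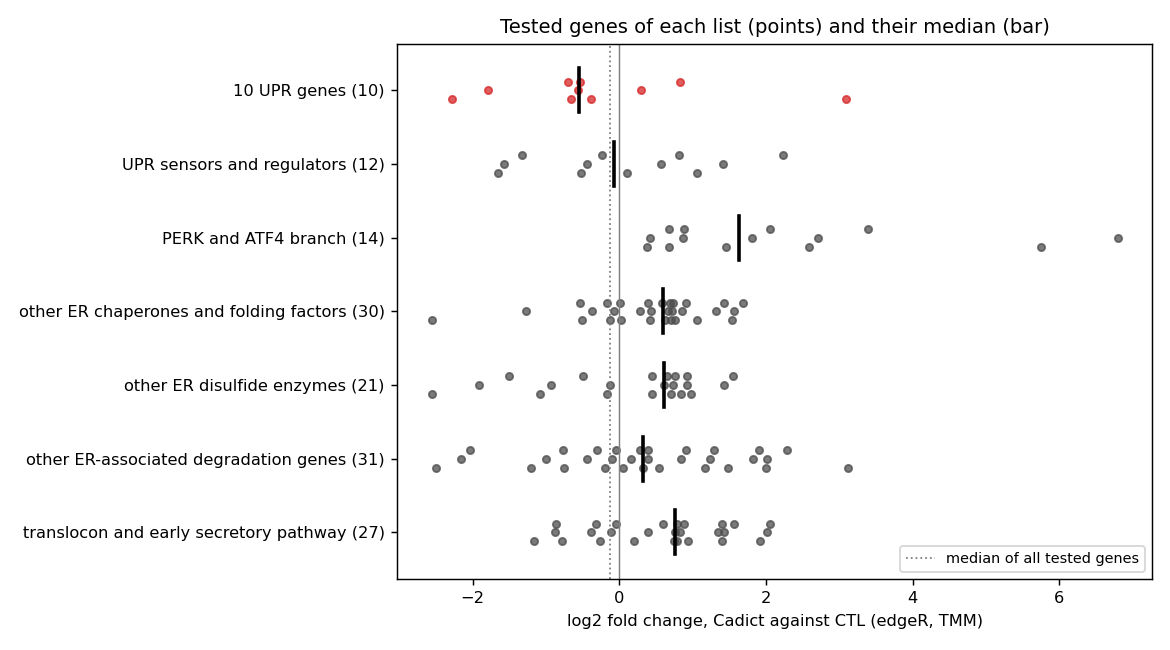
Log2 fold changes in Cadict against CTL (TMM scaling) of the 10 genes and of the tested genes of 6 other lists, with the number tested in parentheses, bars for list medians and a dotted line for the median of all tested genes (-0.13). The 10 genes have the lowest median, -0.55, and the PERK and ATF4 branch the highest, 1.63, on this scale.

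Relatives of the 10 genes, chosen after values were seen, had values of their own in Cadict against CTL. Sdf2, the paralog of Sdf2l1, had 26.2 to 28.5 CPM in CTL and 44.7 to 55.8 CPM in Cadict libraries, a log2 fold change of 0.85 (SE 0.08, adjusted p = 3e-08, edgeR with Benjamini-Hochberg adjustment), which under library totals was -0.10 (adjusted p = 0.20). Edem2, a paralog of Edem1, fell by 2.16 (SE 0.08, adjusted p = 8.9e-13, same test) and Edem3 by 0.77 (SE 0.08). Among other disulfide isomerases, P4hb (0.45), Pdia3 (0.92) and Pdia5 (0.84) were higher with TMM and Pdia6 was slightly lower (-0.17), while under library totals they stood at -0.51, -0.03, -0.11 and -1.13, and Pdia4 at -2.75. Of the other ER J-domain genes, Dnajb11 (0.91), Sec63 (0.58) and Dnajc1 (0.39) were higher and Dnajc3 (-0.37) and Dnajc10 (-0.54) lower with TMM, and all 5 lay below 0 under library totals, where Dnajb9 was at 2.13. Herpud2 had a log2 fold change of 0.32 (SE 0.07, adjusted p = 0.00067, same test) with TMM and -0.63 under library totals.

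The exact ERSE was found in the promoters of 16 of 9547 tested genes with a promoter. Of these, 6 passed as higher and 8 as lower in Cadict against CTL, with a median log2 fold change of -0.21, and 2 were called higher and 4 lower. The shares that passed are close to the 40.6% and 47.1% of all tested genes, of which 20.7% were called higher and 27.1% lower. With library totals 1 passed as higher and 14 as lower, with a median of -1.16, where 18.1% and 73.1% of all tested genes passed. Besides Hspa5, Hsp90b1 and Creld2 they included further ER genes with differing values on the TMM scale, each named after its value was seen. Canx, the lectin chaperone calnexin, had a log2 fold change of 1.06 (SE 0.04, adjusted p = 2.9e-12, edgeR with Benjamini-Hochberg adjustment). Calr, its luminal relative calreticulin, did not pass (-0.07, SE 0.05, adjusted p = 0.16, same test). Syvn1, the ubiquitin ligase HRD1, fell by 0.31 (SE 0.07) and Ero1b, an oxidase that recharges disulfide isomerases, by 1.08 (SE 0.12). Dnajc3 (-0.37, SE 0.06), Pdia6 (-0.17, SE 0.05) and Alg12 (-1.08, SE 0.14) passed as lower too, with adjusted p of 2.1e-05, 0.0040 and 2.3e-06 by the same test. Of these further ER genes, only Canx passed as higher. With library totals Canx was at 0.11 and Calr at -1.03, Syvn1 at -1.26 and Ero1b at -2.03. Dnajc3, Pdia6 and Alg12 were then at -1.32, -1.13 and -2.03.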

How the data were processed

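The authors deposited 1 table with, for each library and gene, an expected count (estimated per gene, not normalized), an FPKM and a TPM (both scaled for gene length and library by the authors); 9 columns of size-factor counts and 12 of averages were not used. The submitters' processing notes list HISAT2 2.1.0, Bowtie2 2.3.4.3 and RSEM 1.3.1 and the builds GRCm39 and GRCh38.p13, without roles. The methods name TRIzol and a Novaseq instrument, the labels a column kit and DNA nanoballs. Columns named CC were read as Cu-Cys by its initials and those named CCGE as Cadict, which is an inference from its components. Expected counts were rounded and fitted in edgeR 4.0.16 (R 4.3.3; filterByExpr, TMM, 1 quasi-likelihood model of the 3 groups, Benjamini-Hochberg over 11949 genes). Passing means an adjusted p of at most 0.05, and calling follows the methods' threshold of a 2-fold change with an adjusted p of at most 0.001.

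Named genes were the 10 and, of each list, up to 3 with the largest absolute change in Cadict against CTL at an average of at least 10 CPM, plus Ern1, Eif2ak3, Atf6, Atf4 and Ddit3. The 10 genes and all lists were chosen with earlier results of these data known. Gene coordinates and shared 50-base stretches are from GENCODE M21 (GRCm38), and promoters from RefSeq (GRCm38.p6). The procedure was tested on simulated data, drawn from the CTL means with a limited set of genes changed in both directions. These simulated libraries held no shift like that of the TMM factors, so the choice of scaling was not tested by them. Alternatives were DESeq2 1.42.0 size factors and Wald test, library totals, other filters, limma 3.58.1 on log2 TPM (pseudocounts of 1 and 0.1) and FPKM (1) at a mean of at least 1, 2 groups at a time, a replicate block and leaving out each library. Intervals from counts cover counting error only. Protein sequences were not used here. Replicates were not duplicates, with a chi-square per degree of freedom of 1.86 to 21.8 between libraries of a group.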

Additional observations from a re-analysis of the deposited data

How the results depend on the processing

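The scaling decides the direction of the abundant chaperones. In Cadict against CTL, with library totals, limma on TPM + 1, on FPKM + 1 and on TPM + 0.1 in this order, the log2 fold change of Hspa5 was -0.13, -0.49, -0.14 and -0.49 and that of Hsp90b1 -0.66, -1.01, -0.66 and -1.01, where TMM gave positive values. In Cadict against Cu-Cys Hspa5 was at -0.020, -0.30, -0.0289 and -0.30 and Hsp90b1 at -0.48, -0.75, -0.48 and -0.76, and in Cu-Cys against CTL Creld2 was at -0.035, -0.11, -0.040 and -0.11. These alternatives do not set the typical gene equal between libraries. Of the 300 values of single genes under alternatives other than leaving out a library, 20 changed direction, and of 270 with a library left out, 0 did. Members called lower numbered 7, 8, 7 and 8 in Cadict against CTL and 7 in each of the 4 in Cadict against Cu-Cys. Of all tested genes, 6148 of 11949, 6393 of 11020, 4866 of 10603 and 6711 of 11020 were called lower in Cadict against CTL. In Cadict against Cu-Cys, 5705, 5775, 4482 and 6264 of the same totals were.

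The median of the 10 genes in Cadict against CTL was -1.50, -1.81, -1.46 and -1.86 in the same order, -0.43 with DESeq2 size factors, -0.45 with DESeq2's Wald test, -0.63 with no filter, -0.61 with at least 10 counts in every library and -0.52 with only these 2 groups. In Cadict against Cu-Cys it was -1.44, -1.68, -1.40 and -1.71, then -0.46, -0.48, -0.64 and -0.59. In Cu-Cys against CTL it was -0.17, -0.24, -0.17 and -0.24. The cause of the shifts under the filters and DESeq2 was not tested. With no limit on the fold change, 3 genes were higher and 7 lower in both Cadict comparisons, and 2 and 3 in Cu-Cys against CTL. Leaving out 1 library gave medians of -0.58 to -0.53 in Cadict against CTL, -0.58 to -0.53 in Cadict against Cu-Cys and -0.12 to -0.063 in Cu-Cys against CTL, the last without CTL replicate 2. Counts of called genes did not change.

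Same-numbered libraries did not deviate together (r between -0.15 and 0.15 over 9706 genes), so the numbers were not taken as pairs. With a replicate block the median was -0.55 in both Cadict comparisons and -0.10 in Cu-Cys against CTL, and the counts of called genes were the same. The lowest counts were 62 to 65 for Sdf2l1 in Cadict libraries.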
